A study of Rattus norvegicus with 6 samples.

Results

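Fatty acid oxidation, ketone body formation and the targets of the fatty acid receptor PPAR alpha were followed through 34 genes in the livers of rats on 6 diets. A gene was measured where a probe set of the array was annotated with its symbol alone, and the brighter of several such probe sets was used. Of the 34 genes, 32 were measured, out of 14506 named on the array. Acaa1a (peroxisomal thiolase) and Decr2 (peroxisomal dienoyl-CoA reductase) had a probe set annotated with 2 genes and were left out. Acot1, the cytosolic acyl-CoA thioesterase, lay between log2 3.08 and 3.58, below the limit of log2 5.14 set for testing. The other 31 genes were tested.

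All animals were adult male Wistar rats, 5 per diet and 30 in all, kept on the diet for 5 weeks after 10 days on the normal protein diet. Livers were taken in the fed state, 2 h after the animals had eaten a fixed morning meal of 87.6 kJ. The diets were normal protein with low fat (NP), normal protein with high sucrose and low fat (NP-HS), and normal protein with high sucrose and high fat (NP-HS-HF). The same 3 backgrounds with high protein are called HP, HP-HS and HP-HS-HF. Below, low fat as the name of a background means NP and HP alone, though the HS diets are low in fat too. The labels call the animals mice in 1 field and rats in the others, and they are taken as rats here. RNA of the 5 livers of a diet was pooled and hybridised to 1 whole-transcript array, so no diet has a replicate and no spread between animals can be seen. The values are log2 levels, on which a difference of 1 is a doubling, and they are compared here for a gene across arrays, not between genes. Hepatocyte markers were present on every array, with all 12 of 12 above the limit for testing and mean levels from log2 11.77 to 13.82.

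Fatty acids enter the liver cell's mitochondria as carnitine esters and are shortened there by rounds of dehydrogenation, hydration, a further dehydrogenation and thiolysis. Peroxisomes shorten the longest chains by a parallel set of enzymes, and the acetyl-CoA made in the mitochondria can leave the liver as ketone bodies. PPAR alpha, a nuclear receptor that binds fatty acids, pairs with the retinoid X receptor and switches on many of these genes in fasting. It binds a direct repeat of a hexamer with 1 base between the copies, called DR1.

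The DR1 was looked for in the 250 bases before the start of each gene, in RefSeq sequence of the rat genome GRCr8, which covered 30 of the 34 genes. The motif searched was 2 copies of AGGTCA with any 1 base between them, on both strands, with at most 1 of its 12 fixed letters changed. The following 3 members held a match, against 0.368% of the 33469 windows of the same length. They are shown because they are the members whose start region carries the receptor's motif, and the capitals mark the match. Fabp1 is at chr4:104749238-104749300 (plus strand), Acot12 at chr2:24721829-24721891 (plus strand) and Acadvl at chr10:55236706-55236747 (minus strand).
Fabp1: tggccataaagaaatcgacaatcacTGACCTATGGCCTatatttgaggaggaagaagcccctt
Acot12: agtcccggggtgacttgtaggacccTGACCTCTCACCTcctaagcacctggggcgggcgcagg
Acadvl: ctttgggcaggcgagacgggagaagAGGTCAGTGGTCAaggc

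A match describes letters and does not show that the receptor binds there, and a missing match covers this window alone. The level of Fabp1, the liver fatty acid binding protein, spanned 0.07 on the log2 scale over the 6 diets. Acot12, a cytosolic acetyl-CoA thioesterase, spanned 0.08, and Acadvl, the very long-chain acyl-CoA dehydrogenase, spanned 0.13. These genes were thus among the steadier ones of the group.

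The start regions of Fgf21 and of the gene pair Hadha and Hadhb are shown for other reasons. Fgf21 encodes a liver hormone of fasting and of amino acid shortage. Its window held the C/EBP-ATF response element TTGCATCA, through which the stress factor ATF4 acts, searched exactly and on both strands and found in 0.693% of windows (capitals; chr1:105221487-105221544, minus strand). Hadha and Hadhb encode the subunits of the mitochondrial trifunctional protein and are read away from each other, with 300 bases between their starts. The stretch of 250 bases next to Hadha is printed (chr6:31907551-31907800, plus strand).
Fgf21: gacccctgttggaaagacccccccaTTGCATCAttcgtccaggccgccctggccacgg
Hadha and Hadhb: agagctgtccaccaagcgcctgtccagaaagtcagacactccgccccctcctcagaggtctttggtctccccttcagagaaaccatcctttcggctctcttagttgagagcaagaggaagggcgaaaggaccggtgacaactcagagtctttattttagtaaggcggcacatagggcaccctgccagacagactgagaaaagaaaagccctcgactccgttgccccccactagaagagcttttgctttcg

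Over the 6 diets most of these genes moved little. The difference between a gene's highest and lowest array ran from 0.07 to 1.04 on the log2 scale, with a median of 0.23 against 0.24 for all 11421 named genes tested. The members were bright, with 23 of the 31 above a mean of log2 10 and a median at percentile 96.8 of all probe sets. The comparison with named genes is not matched for level. The difference between highest and lowest array was under 0.2 for 12 of the 31 genes and over 0.5 for 7. Differences of 1.5-fold or more in any of 9 comparisons between 2 arrays were reached by 4 genes, namely Angptl4, Crat, Crot and Fgf21, where 3% of named genes reached them. At 1.2-fold there were 12 genes, against 36.9% of named genes, and at 2-fold 1, Angptl4, against 0.639%. The HP-HS-HF array was the most extreme over the whole table, highest for 2064 and lowest for 2510 of the 11421 named genes. The other 5 arrays were highest for 1698 to 1993 and lowest for 1546 to 1985.

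**Figure D1:**
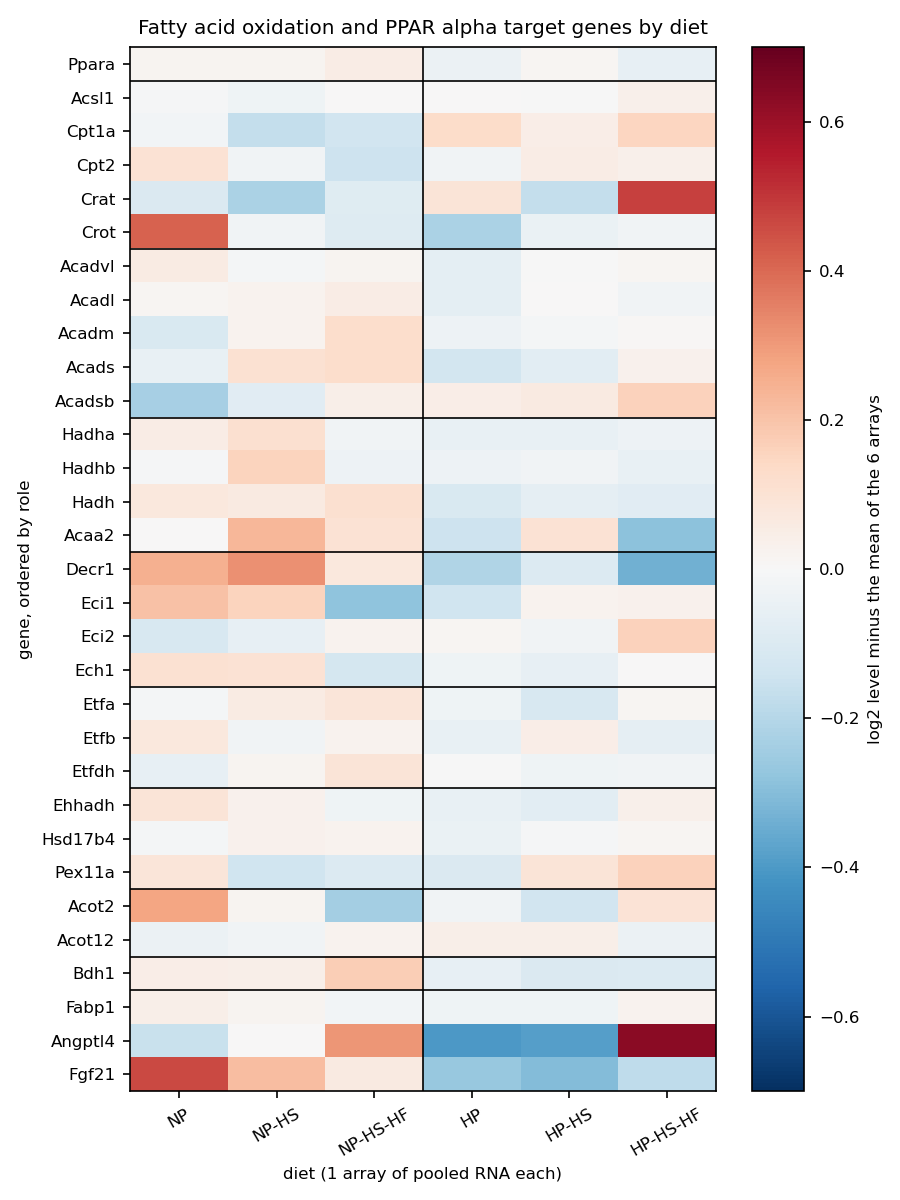
Each gene's log2 level minus its mean over the 6 arrays (colour), with a column per diet and genes ordered by role between the lines. Angptl4 and Crat stand out on the HP-HS-HF array, Crot and Fgf21 on the NP array, and most other genes stay pale.

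With high protein against normal protein, 0 of the 31 genes passed the test in the mean of the 3 backgrounds. The test was limma with Benjamini-Hochberg adjustment over all 20450 probe sets, of which 0.044% passed. Its error joins how a gene's differences vary between backgrounds with a prior drawn from all probe sets tested. The lowest adjusted p among the 31 genes was 0.124. Of the 31, 23 had a fitted difference below 0 and 8 above it, with a median of -0.05, whereas 48.5% of all named genes lay above 0 and their median was 0.00. The median of the 31 was -0.02 without any of the NP, HP, NP-HS or HP-HS arrays in turn and -0.06 without NP-HS-HF or HP-HS-HF. Leaving out an array takes its whole background out of the protein difference, so both arrays of a background give the same result. An unadjusted p under 0.05 was reached by 8 genes, 5 lower and 3 higher, which is 25.8% of the 31 against 8.71% of all probe sets and 8.68% of named genes (3.99% lower and 4.68% higher). Without any 1 array that number was 4 or 5, and with an ordinary t statistic it was 3, where 6.49% of all probe sets reached that p.

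The shift in each background is given as values only, because its dependence on background leaves no error to test it with. On low fat 23 of 31 genes were lower with high protein (median -0.10). On high sucrose 21 were lower (median -0.05) and on high sucrose with high fat 17 (median -0.01). Across all named genes the 3 medians lay between -0.01 and 0.01. All 3 HP arrays lay below all 3 NP arrays for 7 of the 31 genes and above them for 2, whereas 8.57% and 8.06% of named genes did so.

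**Figure D2:**
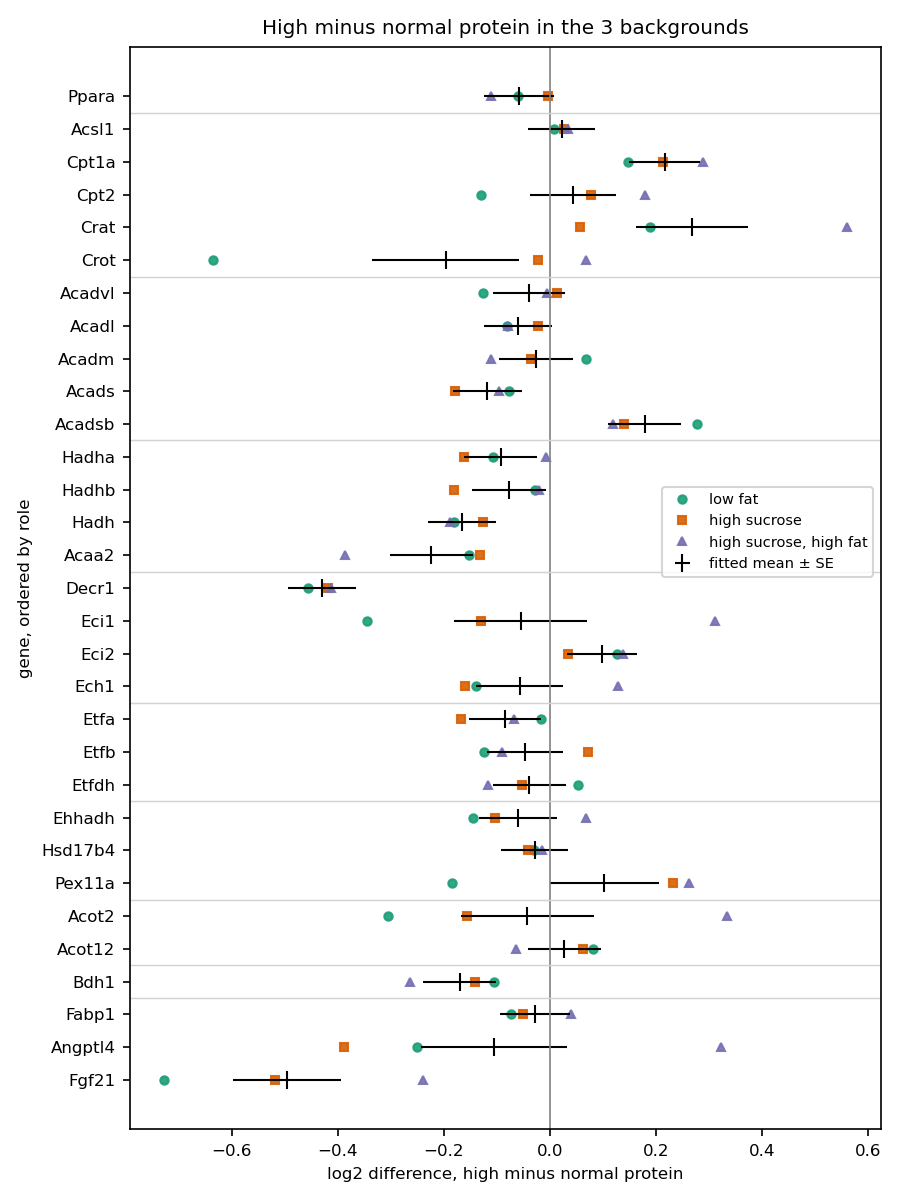
Log2 difference between high and normal protein for each gene in the low fat, high sucrose and high sucrose high fat background (symbols), with the fitted mean and its SE (black). Decr1 shows 3 nearly equal differences below 0, whereas Eci1 and Acot2 lie on both sides of 0.

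Decr1, the mitochondrial 2,4-dienoyl-CoA reductase that deals with double bonds of polyunsaturated fatty acids, was the member with the smallest p for protein. Its level was 9.97, 10.04 and 9.79 on the NP, NP-HS and NP-HS-HF arrays and 9.51, 9.62 and 9.38 on the HP, HP-HS and HP-HS-HF arrays. Every HP array lay below every NP array. The differences were -0.46, -0.42 and -0.41 in the 3 backgrounds. The fitted difference was a 1.35-fold lower level (log2 -0.43 ± 0.064 SE, 3 pairs of arrays, limma adjusted p = 0.124). With a trended and robust prior the adjusted p was 0.0414, under which 0.279% of all probe sets passed.

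The other enzymes for double bonds did not follow Decr1. Eci2, an enoyl-CoA isomerase, was at 0.10 ± 0.066 SE. Eci1, the mitochondrial enoyl-CoA isomerase, was at -0.05 ± 0.125 SE and Ech1, a dienoyl-CoA isomerase, at -0.06 ± 0.082 SE. These 2 genes had both signs among the backgrounds and are taken up again below.

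Fgf21 was lower on the HP arrays. Its level was 7.13, 6.89 and 6.73 on the NP, NP-HS and NP-HS-HF arrays and 6.41, 6.37 and 6.50 on the HP arrays in the same order. The groups did not overlap, and the differences in the 3 backgrounds were -0.73, -0.52 and -0.24. The fitted level was 1.41-fold lower (log2 -0.50 ± 0.101 SE, limma adjusted p = 0.233). Beside it, of 12 tested genes of the integrated stress response, 1 had an unadjusted p under 0.05 (8.33%, against 8.68% of named genes). This was Nupr1 at -0.56 ± 0.102 SE, and the list's median was 0.04. Atf4, named because the element in the Fgf21 window is that of its product, was at 0.02 ± 0.095 SE.

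Among the 5 genes of fatty acid activation and the carnitine shuttle, 0 passed for protein and 2, Cpt1a and Crat, were higher at an unadjusted p under 0.05. Cpt1a, the liver carnitine palmitoyltransferase that sets the pace of this entry, had levels of 11.62, 11.48 and 11.51 on the NP, NP-HS and NP-HS-HF arrays. On the HP arrays it had 11.77, 11.69 and 11.80, each above all NP arrays. The fitted difference was 0.22 ± 0.067 SE (limma adjusted p = 0.439). Crat, the carnitine acetyltransferase, was at 0.27 ± 0.105 SE, and at 0.12 without NP-HS-HF or HP-HS-HF. Acsl1, the main long-chain acyl-CoA synthetase, was at 0.02 ± 0.063 SE and Cpt2, the inner membrane carnitine palmitoyltransferase, at 0.04 ± 0.081 SE. Crot, which hands peroxisomal products to carnitine, was at -0.20 ± 0.139 SE. Thus 4 of these 5 genes had fitted differences above 0, of which Acsl1 and Cpt2 lay within their error.

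The enzymes of the mitochondrial cycle itself lay mostly just below 0. Of the 5 acyl-CoA dehydrogenases, 4 were between -0.12 and -0.03, and Acadsb, whose substrates include a product of isoleucine breakdown, was at 0.18 ± 0.069 SE. Acadsb had 10.15, 10.30 and 10.42 on the NP arrays and 10.42, 10.44 and 10.54 on the HP arrays. The HP arrays lay above the NP arrays, by less than 0.01 where the groups met. The 4 genes of the later steps were all below 0, with Acaa2, the mitochondrial thiolase, at -0.22 ± 0.078 SE (-0.14 without NP-HS-HF or HP-HS-HF) and Hadh, the short-chain hydroxyacyl-CoA dehydrogenase, at -0.16 ± 0.064 SE.

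Hadh had levels of 11.86, 11.85 and 11.90 on the NP arrays and 11.68, 11.72 and 11.71 on the HP arrays, without overlap. Hadha, the trifunctional protein's alpha subunit, had 11.51, 11.56 and 11.43 on the NP arrays and 11.40, 11.40 and 11.42 on the HP arrays. Hadhb, its beta subunit, had 10.27, 10.44 and 10.25 on the NP arrays and 10.24, 10.26 and 10.22 on the HP arrays. This divergent pair was highest on the same array, NP-HS, which was the highest array for 5 of the 31 members. The fitted protein differences of Hadha and Hadhb were -0.09 ± 0.068 SE and -0.08 ± 0.070 SE. A dimmer probe set of Hadha differed by -0.32, -0.25 and -0.11 in the 3 backgrounds, more than the -0.11, -0.16 and -0.01 of the one used.

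Electrons from these dehydrogenases pass through the electron transfer flavoprotein, and its 3 genes Etfa, Etfb and Etfdh lay between -0.08 and -0.04. Bdh1, which turns acetoacetate into beta-hydroxybutyrate in the last step of ketone body formation, was 10.50, 10.50 and 10.63 on the NP arrays and 10.40, 10.36 and 10.36 on the HP arrays. Its groups did not overlap (-0.17 ± 0.069 SE, limma adjusted p = 0.563). Ppara itself was 10.88, 10.88 and 10.91 on the NP arrays and 10.82, 10.88 and 10.80 on the HP arrays. Its fitted protein difference was -0.06 ± 0.066 SE, so the receptor's transcript differed by less than its error.

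In peroxisomes, Ehhadh, the bifunctional enzyme induced by PPAR alpha agonists, was at -0.06 ± 0.073 SE for protein. Hsd17b4, the other bifunctional enzyme, was at -0.03 ± 0.063 SE and spanned 0.08 over all diets. Pex11a, a peroxisome division protein, was at 0.10 ± 0.103 SE. The thioesterases Acot2 and Acot12 were at -0.04 ± 0.125 SE and 0.03 ± 0.068 SE.

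Markers of other cells and of liver zones are given beside these protein differences, and 0 of them passed the test. All 14 tested macrophage markers had a fitted difference above 0 (median 0.20), with summed signals of 4690 to 5064 on the NP arrays and 5223 to 5740 on the HP arrays. All 8 bile duct and all 8 endothelial markers were above 0 as well, with medians of 0.20 and 0.04. Of the 14 pericentral hepatocyte genes 11 were above 0 (median 0.10), and of the 13 periportal ones 9 (median 0.12). Hepatocyte markers had 5 of 12 above 0, with sums of 103254 to 105515 and 104120 to 106731. In whole liver, fewer cells of a type and less RNA per cell cannot be told apart, and the part of cell makeup or zone in the protein differences was not tested.

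High sucrose with low fat against the low fat diet alone, compared within each protein level, left these genes close to where they were. Of the 31, 0 passed limma's test (lowest adjusted p = 1.00), 0% of all probe sets did, and 1 had an unadjusted p under 0.05 against 3.02% of all probe sets and 2.12% of named genes. The median difference was 0.01, with 16 above 0 and 15 below. That gene was Acaa2 (0.24 ± 0.096 SE), whose differences were 0.23 at normal and 0.25 at high protein. All 5 genes of fatty acid activation and the carnitine shuttle lay below 0, between -0.19 and -0.02, and all 4 genes of the later mitochondrial steps above it. The 2 protein levels share no array, and 18 of the 31 genes had the same sign in both, where 44.5% of named genes did.

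Fat added to high sucrose had its largest fitted difference in Angptl4. This gene encodes a secreted inhibitor of lipoprotein lipase and is a target of PPAR receptors. Its level was 9.01, 9.17 and 9.48 on the NP, NP-HS and NP-HS-HF arrays and 8.76, 8.78 and 9.80 on the HP, HP-HS and HP-HS-HF arrays. Both high fat arrays lay above the 4 others. Fat was accompanied by a difference of 0.31 at normal protein and 1.02, or 2.02-fold, at high protein, where 0.455% of named genes were higher by 1.5-fold or more. The fitted difference was 1.58-fold (log2 0.66 ± 0.168 SE, 2 pairs of arrays, limma adjusted p = 0.813). Without 1 of the 6 arrays it ran from 0.34 (without HP-HS-HF) to 0.98 (without NP-HS-HF, adjusted p = 0.0624).

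**Figure D3:**
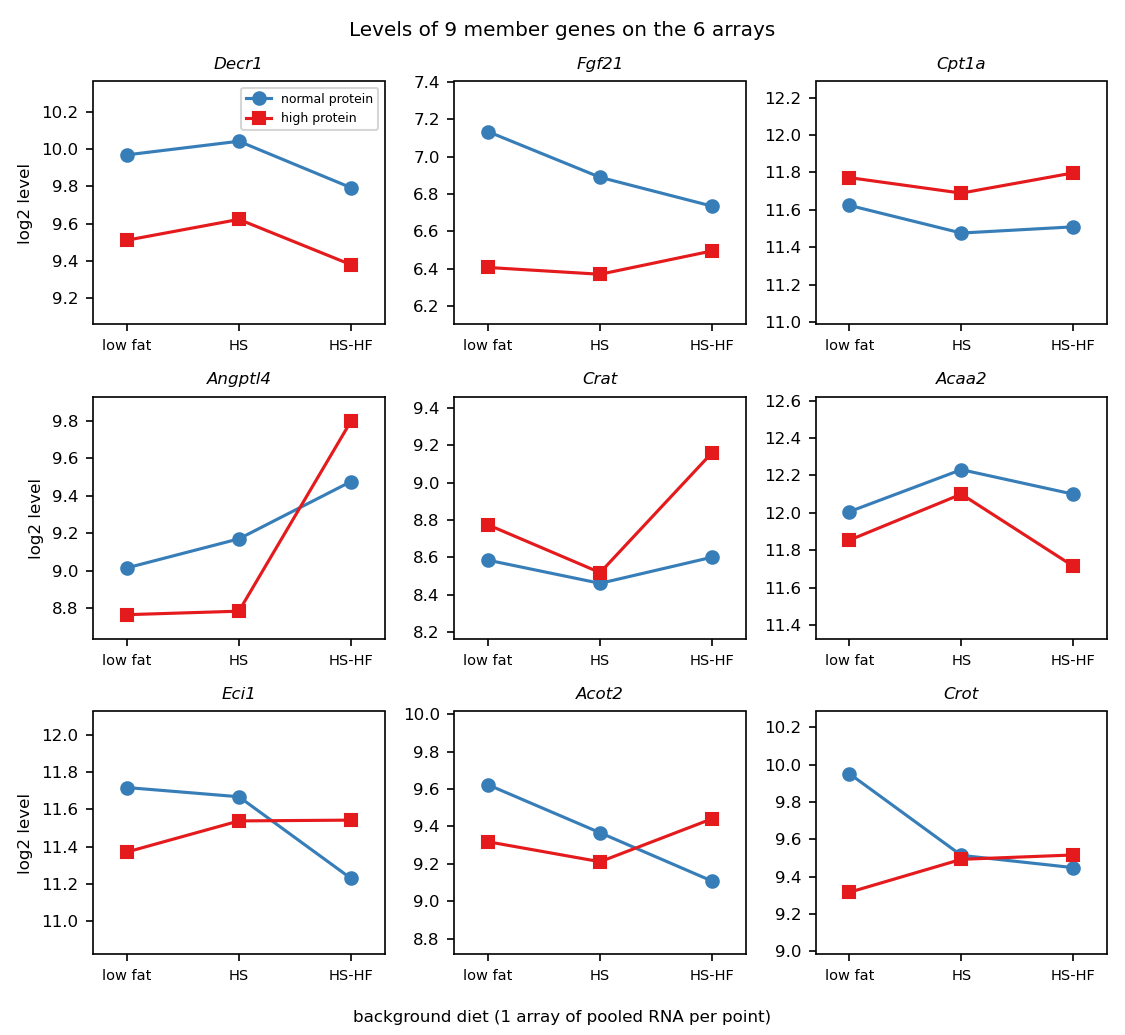
Log2 levels of 9 genes against background diet, with normal protein as circles and high protein as squares, 1 array per point. The Angptl4 and Crat panels show the high protein line turning up at high sucrose with high fat, and in the Eci1 and Acot2 panels the lines cross.

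Crat had a like pattern at high protein. It was 8.58, 8.46 and 8.60 on the NP, NP-HS and NP-HS-HF arrays and 8.77, 8.52 and 9.16 on the HP arrays. The HP-HS-HF array alone stood apart, 0.64 or 1.56-fold above HP-HS, against 0.14 at normal protein. The fitted fat difference was 0.39 ± 0.129 SE (limma adjusted p = 0.934), and without 1 array it lay between 0.17 (without HP-HS-HF) and 0.61 (without NP-HS-HF).

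Decr1 and Acaa2 were lower with fat at both protein levels. Decr1 differed by -0.25 at normal and -0.24 at high protein, and Acaa2 by -0.13 and -0.39. Acaa2 was 12.01, 12.23 and 12.10 on the NP, NP-HS and NP-HS-HF arrays and 11.85, 12.10 and 11.71 on the HP arrays. Their fitted fat differences were -0.25 ± 0.078 SE and -0.26 ± 0.096 SE. Without 1 array that of Acaa2 ran from -0.38 (without NP-HS-HF) to -0.14 (without HP-HS-HF). With Angptl4 and Crat these were the 4 genes at an unadjusted p under 0.05, 12.9% of the 31 against 4.95% of all probe sets and 4.1% of named genes. Without the HP-HS array 0 genes reached that p, and without NP-HS 2 did. By the adjusted test 0 of the 31 passed, as did 0% of all probe sets, and the median of the group was 0.01. Of 7 adipocyte markers, which bear on Angptl4 because fat cells make it too, 6 were above 0 with fat (median 0.08). The highest of them was at 0.21. The 1 below 0 was Adipoq, the adipocyte hormone, at -0.04. Adipoq lay between 5.17 and 5.39 on all arrays, close to the limit for testing, and the part of fat tissue was not tested.

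Sucrose and fat against low fat again had Angptl4 in front, at 0.75 ± 0.168 SE (limma adjusted p = 0.804), with differences of 0.46 at normal and 1.04 at high protein. Without 1 array it ran from 0.43 (without HP-HS-HF) to 1.07 (without NP-HS-HF, adjusted p = 0.0552). It was the 1 gene of 31 at an unadjusted p under 0.05, against 5.18% of all probe sets and 4.51% of named genes, and 0 genes passed, as did 0% of all probe sets. All 5 acyl-CoA dehydrogenases lay above 0, between 0.02 and 0.19, led by Acadsb (0.19 ± 0.085 SE) and Acads, the short-chain enzyme (0.17 ± 0.080 SE). Acads was 9.25, 9.41 and 9.42 on the NP, NP-HS and NP-HS-HF arrays and 9.17, 9.23 and 9.33 on the HP arrays, lowest on low fat at both protein levels. This comparison shares its high fat arrays with the one for fat and its low fat arrays with the one for sucrose, so the 3 are not separate results.

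At normal and high protein, which share no array, the sign of the sucrose and fat difference was opposite for 17 of the 31 genes, where 52% of named genes had opposite signs, so the share was near the background. Of the 31 genes 12 were lower at normal and higher at high protein, 5 the reverse, 11 higher at both and 3 lower at both. At high protein 23 of 31 lay above 0 (74.2%, against 46.9% of named genes), and at normal protein 16 (51.6%, against 52.4%). With 1 array per diet the dependence on protein leaves no error to test it with, so these are values only. The HP and NP low fat arrays that enter here are the same as in the protein comparison on low fat.

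**Figure D4:**
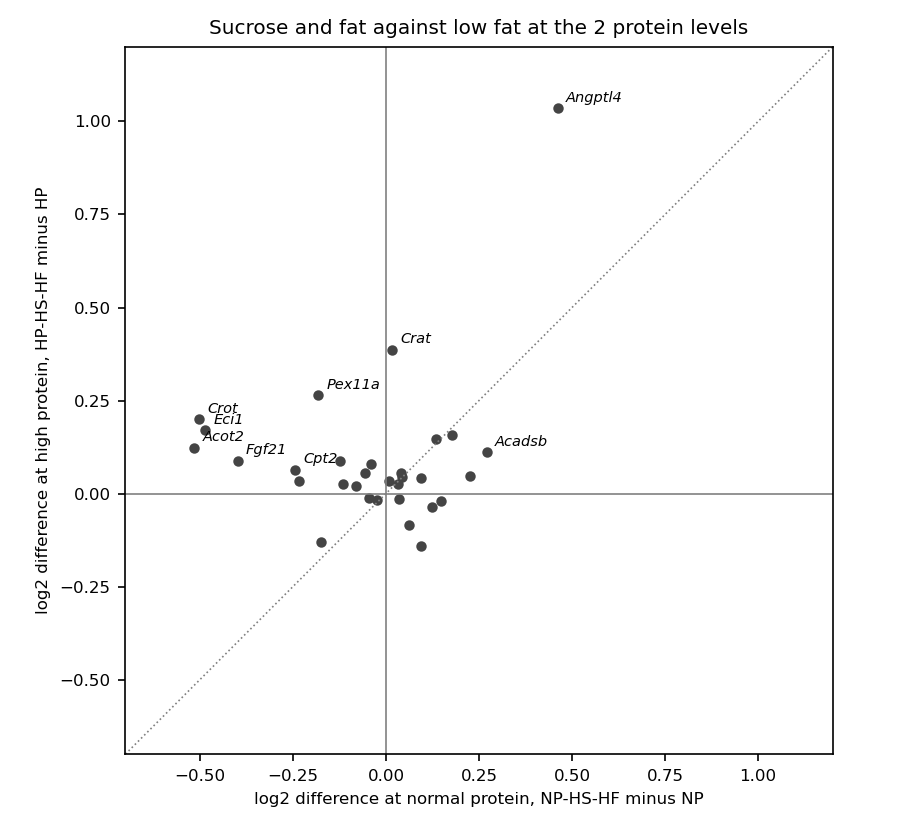
Log2 difference between the high sucrose high fat and the low fat diet at normal protein (x axis) and at high protein (y axis), 1 point per gene, with the dotted line marking equal differences. Crot, Eci1 and Acot2 lie left of 0 and above it, and Angptl4 is high on both axes.

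Eci1 was 11.72, 11.67 and 11.23 on the NP, NP-HS and NP-HS-HF arrays and 11.37, 11.54 and 11.54 on the HP arrays. It was lowest on NP-HS-HF, and high and normal protein differed by -0.35 on low fat and by 0.31 with sucrose and fat. Acot2, a mitochondrial thioesterase that frees fatty acids from CoA, was 9.62, 9.37 and 9.11 on the NP arrays and 9.32, 9.21 and 9.44 on the HP arrays. Its highest and lowest arrays were also NP and NP-HS-HF.

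Crot was 9.95, 9.51 and 9.45 on the NP, NP-HS and NP-HS-HF arrays and 9.32, 9.49 and 9.52 on the HP arrays. The NP array stood 1.55-fold above HP. Crot and Fgf21 were the 2 members lower by 1.5-fold or more with high protein on low fat, where 0.42% of named genes were. Cpt2, Ech1 and Pex11a had their NP array above their NP-HS-HF array by 0.25, 0.23 and 0.18. At high protein the same step gave 0.06, 0.03 and 0.26 in the other direction.

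Other genes of the pathway were read from lists that leave out the members. These lists were chosen with earlier results of these data known, so their shares are not independent of the data. Among 17 tested partners of PPAR alpha 0 passed for any of the 4 effects. The coactivators Ppargc1a and Ppargc1b were higher with protein at an unadjusted p under 0.05 (0.27 ± 0.081 SE and 0.22 ± 0.066 SE). Pparg, which encodes the separate receptor PPAR gamma, was lower at that limit (-0.20 ± 0.069 SE). These 3 were 17.6% of the 17, against 8.68% of named genes. Lpin1, a phosphatidate phosphatase and coactivator, was lower with fat at both protein levels (-0.70 and -0.86), with a fitted difference of -0.78 ± 0.095 SE (limma adjusted p = 0.448).

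Of 44 other fatty acid oxidation genes 0 passed for any effect. For protein 6 were higher and 1 lower at an unadjusted p under 0.05 (15.9%, against 8.68% of named genes). The medium-chain acyl-CoA synthetase Acsm3 was 0.91 ± 0.107 SE higher with fat (limma adjusted p = 0.422), with 0.88 at normal and 0.94 at high protein. The thioesterase Acot5 differed by 0.14 and 0.80. Of 6 other ketone body genes 0 passed for any effect, and for protein 3 lay above 0 and 3 below. At an unadjusted p under 0.05 were 2 of the 6, or 33.3%, against 8.68% of named genes. Bdh2, a cytosolic hydroxybutyrate dehydrogenase, was higher with protein (0.31 ± 0.128 SE, limma adjusted p = 0.563). Acat1, the mitochondrial acetoacetyl-CoA thiolase, was lower (-0.23 ± 0.072 SE, limma adjusted p = 0.443).

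Of 37 other PPAR alpha targets 1 passed for protein, where 0.044% of all probe sets did. It was the pantetheinase Vnn1, which fell (-1.15 ± 0.067 SE, limma adjusted p = 0.0137). Vnn1 lay at 9.29, 9.65 and 9.34 on the NP, NP-HS and NP-HS-HF arrays and at 8.11, 8.46 and 8.27 on the HP arrays, far below. Its adjusted p was 0.205 without the NP or the HP array, 0.117 without NP-HS or HP-HS, and 0.0102 without NP-HS-HF or HP-HS-HF, with a difference between -1.19 and -1.13 throughout. Each of these fits lacks a whole background for the protein difference, not a single array alone. An unadjusted p under 0.05 for protein was reached by 8 higher and 5 lower genes of the 37. That is 35.1%, against 8.68% of named genes (4.68% higher and 3.99% lower), for a list chosen with earlier results of these data known. For sucrose, fat, and sucrose and fat 0 passed. Pdk4, the kinase that shuts off pyruvate dehydrogenase, was 10.00, 9.68 and 10.27 on the NP, NP-HS and NP-HS-HF arrays and 9.69, 9.54 and 11.29 on the HP arrays. The HP-HS-HF array stood apart, as for Crat, and this array was also the highest for Angptl4. It was the most extreme array over all named genes too, and these genes are named for their large fat differences. Pdk4 differed with fat by 0.59 at normal and 1.76 at high protein (fitted 1.17 ± 0.299 SE, limma adjusted p = 0.813). Plin2, a lipid droplet coat protein, differed by 0.16 and 0.55, and G0s2, an inhibitor of fat breakdown, by 0.38 and 0.48. These named genes rose, but with fat 23 of the 37 lay below 0 and 14 above (median -0.05, lowest -0.60). At an unadjusted p under 0.05 for fat were 5 genes, 3 lower and 2 higher (13.5%, against 4.1% of named genes).

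**Figure D5:**
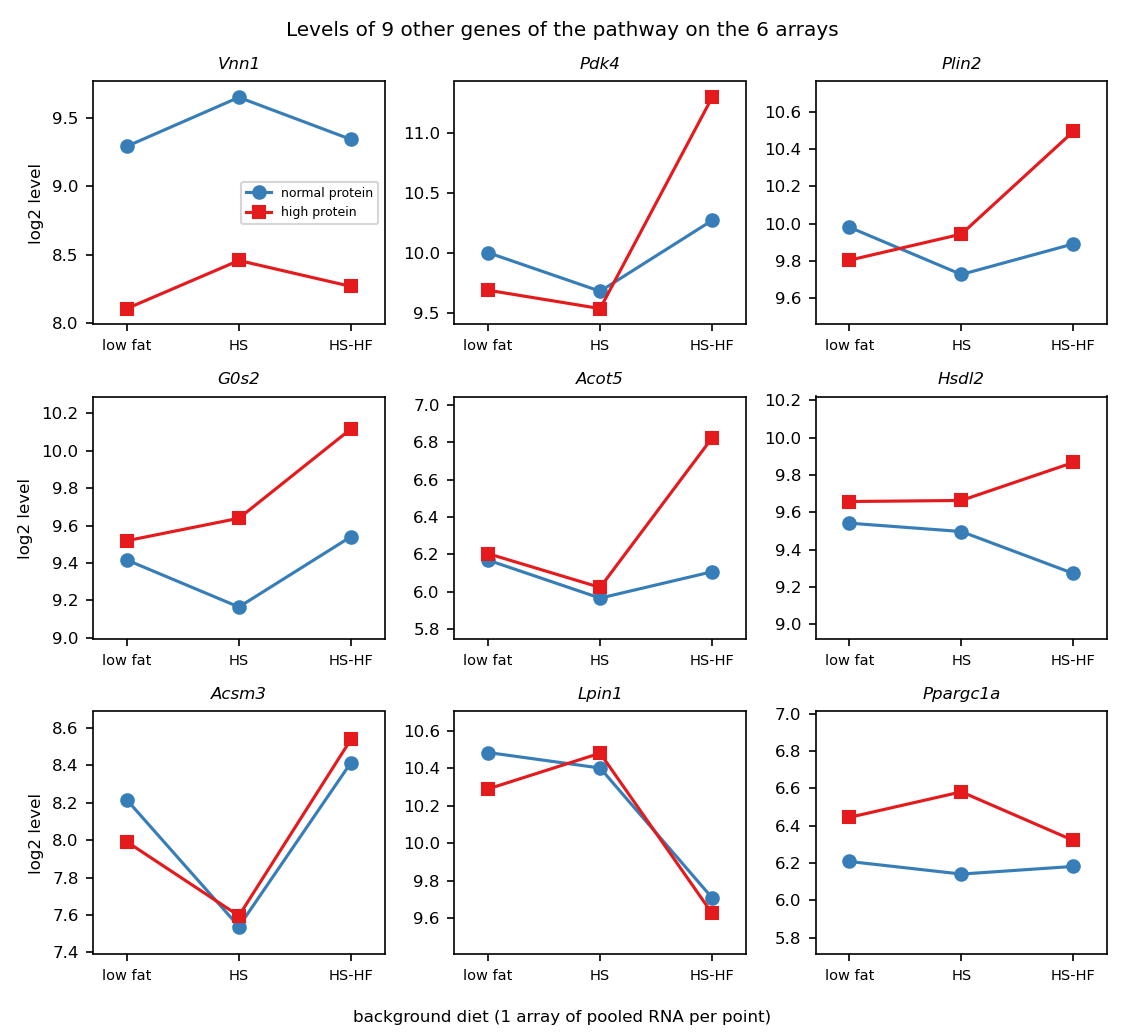
Log2 levels of 9 pathway genes outside the group against background diet, with normal protein as circles and high protein as squares, 1 array per point and axes of different span. In the Pdk4, Plin2 and Acot5 panels the HP-HS-HF array is the highest, and in the Vnn1 panel the lines for normal and high protein lie apart throughout.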

How the data were processed

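The deposited values are log2 levels per probe set, which the submitters' processing notes say were made by RMA, a method that corrects background, evens out the arrays and sums probes. Its version, settings and genome build were not stated in the labels. RMA brings arrays to like distributions, so a change shared by most genes would not show. The 6 array medians lay within 0.033 of each other. Of 29214 probe sets, the 20450 with a mean above the 30th percentile were tested with limma 3.58.1 in R 4.3.3, with additive terms for protein and background, which leaves 2 residual degrees of freedom. The fit was tested on data simulated from its own additive model, which cannot show whether that model holds for these arrays. With 1 pool per diet, p-values reflect how differences vary between backgrounds, for the gene and for all probe sets, and not between rats. Each gene's error was drawn toward a prior from all probe sets tested, of 4.37 degrees of freedom and SD 0.094. That prior weighs more than the gene's own 2 residual degrees of freedom, so the smallest SEs largely repeat it. A call needed an adjusted p under 0.05 (Benjamini-Hochberg).

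Members, lists and tests were chosen with earlier results of these data known. Full values go to the 5 members with the largest fitted difference per effect, to those past 1.5-fold between 2 arrays, and to others where a group turns on them, chosen after their values were seen; from other lists, members past the test and up to 4 per effect are named. Other filters, priors, scalings and left-out arrays were tried.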

Additional observations from a re-analysis of the deposited data

Results flagged for a closer look

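Genes whose high minus normal protein difference was at least 1.2-fold in both of 2 backgrounds with opposite signs were singled out, a limit chosen after the data were seen. Eci1 differed by -0.35 on low fat and by 0.31 on high sucrose with high fat. Acot2 differed by -0.30 and 0.33 in the same backgrounds. Angptl4 differed by -0.39 on high sucrose and by 0.32 on high sucrose with high fat. Each difference rests on 1 array per diet, and the change between backgrounds was not tested.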

How the results depend on the processing

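Each diet had 1 array, so there was no replicate to fit a block by, and the fit as run compares protein levels within each background. The count of 0 members past the test held for each of the 4 effects under every alternative tried, except that Decr1 alone passed for protein with the trended and robust prior (1 member, -0.43, adjusted p = 0.0414). Members at an unadjusted p under 0.05 changed more. With an ordinary t statistic they numbered 3 for protein, 2 for sucrose, 1 for fat and 3 for sucrose and fat, and with the trended and robust prior 2 for sucrose and fat. Without a filter, or with arrays centred on their medians, sucrose had 0. Without 1 array they ranged from 4 to 5 for protein, 0 to 1 for sucrose, 0 to 4 for fat and 1 to 4 for sucrose and fat. Past 1.2-fold in any of the 9 differences there were 12 members, and past 2-fold 1, where 36.9% and 0.639% of named genes were. Some fitted differences turned sign without 1 array. For sucrose these were Acot2 (-0.38 to 0.015), Fgf21 (-0.31 to 0.034) and Crot (-0.46 to 0.20). For fat it was Eci1 (-0.49 to 0.058), and for sucrose and fat Acot2 (-0.48 to 0.086) and Crat (-0.017 to 0.42). Of 275 values of the genes named per effect under an alternative, 266 kept direction and side of the threshold. Many of them could not change direction, so this count is no measure of robustness. Another filter or prior leaves the fitted difference itself as it was. So does leaving out an array of a background that a sucrose or fat comparison does not use. Outside the members, Vnn1 was refitted for protein after the data were seen, and its adjusted p was 0.583 with an ordinary t statistic. The cause was not tested, and the number of arrays limits the precision.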
